A study of Mus musculus with 24 samples.

Results

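The lysosome is the compartment in which cells digest proteins, glycans and lipids, and 38 mouse genes for its enzymes, its membrane proteins, its proton pump and the TFEB family of transcription factors are described here in spleen. They were chosen by name from what the genes are known to do, with a mean rlog, the log2 scale explained below, of at least 3.32. All 38 named genes reached that level, as did 16557 of the 46078 genes in the whole data set, which were the genes tested. By role they are 3 transcription factors (Tfeb, Tfe3, Mitf), 6 channel and membrane proteins, 10 proteases, 9 glycosidases and sulfatase, 4 genes of lipid and saposin handling and 6 of the proton pump.

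RNA came from the spleens of 24 male C57BL/6J mice, 20 weeks old, all injected with 10000 GFP-expressing BCR-ABL leukemia cells, with 6 mice in each of 4 groups and 1 library per mouse. FMD + VC mice received a fasting-mimicking diet (FMD) in 4 cycles of 3 days and vincristine (VC), a drug that blocks microtubule assembly, at 0.5 mg/kg once a week. AL + VC mice were fed chow ad libitum (AL) and received vincristine, FMD mice received the diet with vehicle, and AL mice were fed ad libitum with vehicle. A whole spleen holds leukemia cells together with normal B cells, T cells, macrophages and red cell precursors, so that fewer cells of a type and less RNA per cell cannot be told apart. Values are regularized log2 (rlog) values, 1 unit being a doubling. They are not scaled by gene length, so they are compared between mice and not between genes.

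Lysosomal enzymes work at acid pH, which the V-type ATPase keeps up by pumping protons into the lumen at the cost of ATP. TFEB, TFE3 and MITF are related factors that bind short E-box sites in the promoters of many lysosomal and autophagy genes. When nutrients are plentiful the kinase mTORC1 at the lysosome keeps TFEB in the cytoplasm, and in starvation calcium released through the channel TRPML1 activates calcineurin, which removes phosphate from TFEB so that it can enter the nucleus. That control acts on the protein, which RNA levels do not measure. In spleen the enzymes are well known from macrophages, which digest red cells, and from B cells and dendritic cells, which cut antigen for presentation.

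The promoter sites to which TFEB family factors bind are shown for members of 4 roles, since the members were grouped by these sites further on. RefSeq promoter windows (GRCm38.p6), 250 bases before to 50 after the start of transcription, were matched for 33 of the 38 genes, with 43 windows in all. Atp6v1b2, Atp6v1h, Ctsb, Ctsh and Npc1 had no entry. The upstream stretches below are written on the strand of the gene, with CACGTG and the longer TCACGTG, read on both strands, in capitals. They lie at chr8:3500427-3500500 (plus strand) for Mcoln1, chr8:13159079-13159160 (plus) for Lamp1, chr2:164833740-164833772 (plus) for Ctsa, chrX:134601173-134601253 (minus) for Gla, chr11:119355513-119355559 (minus) for Sgsh and chr16:44139364-44139411 (minus) for Atp6v1a.
Mcoln1: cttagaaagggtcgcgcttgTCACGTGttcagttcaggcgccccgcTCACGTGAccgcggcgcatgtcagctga
Lamp1: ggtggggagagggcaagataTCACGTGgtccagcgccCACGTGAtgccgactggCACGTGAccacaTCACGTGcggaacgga
Ctsa: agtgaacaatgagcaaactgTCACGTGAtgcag
Gla: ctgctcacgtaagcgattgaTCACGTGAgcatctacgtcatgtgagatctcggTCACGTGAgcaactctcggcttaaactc
Sgsh: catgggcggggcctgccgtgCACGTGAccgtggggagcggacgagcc
Atp6v1a: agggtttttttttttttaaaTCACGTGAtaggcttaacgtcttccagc

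TCACGTG was found in 12 of the 43 windows of these genes (27.9%) and in 3.77% of all 32851 windows of the table. The shorter CACGTG, which every TCACGTG holds, was in 13 of 43 windows (30.2%) against 7.15% of all windows, and TCATGTG, a different E-box of the same length as the longer one, was in 7 of 43 (16.3%) against 3.77%. In the 250 bases before the start alone, TCATGTG was in 3 of 43 (6.98%) against 3.25% of all windows. The 12 genes with a TCACGTG window were Mcoln1 and Lamp1, the proteases Ctsa, Ctsd and Lgmn, the glycosidases and sulfatase Gaa, Gla, Glb1, Naglu and Sgsh, and the pump subunits Atp6v0d1 and Atp6v1a. The windows of Tfeb, Tfe3 and Mitf held none of the 3 motifs. A match describes the letters of a window and not binding. The genes were chosen by name for known lysosomal roles, and E-box sites are known from many lysosomal promoters. A higher share than over all windows is thus not a result of these data.

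Before the members' values, some libraries stand apart. Xist, the RNA of the inactive X chromosome of female cells, had in these male mice an rlog of 10.45 to 12.99 in FMD + VC mice, 10.48 to 15.20 in AL + VC mice, 12.43 to 15.28 in FMD mice and 13.88 to 15.68 in AL mice. FMD + VC mice 21, 29, 30 and 46 lay close together, at 10.45 to 10.53. The rlog draws low counts toward the mean of a gene. Without counts it cannot be told whether Xist was present in the lowest mice, and its differences may be understated. The sources do not give the sex of the injected cells. Within AL + VC, mice 13, 14 and 37 were at 14.45 to 15.20 and mice 17, 18 and 41 at 10.48 to 11.11. AL mouse 32 had a mean over 9 erythroid markers of 12.68, the highest of the 24 mice. In FMD + VC vs AL all 9 mature B cell markers were called higher (Ms4a1 by 2.40, Cr2 by 2.60), 8 of 10 T cell markers were called higher, 7 of 9 erythroid markers were called lower and none of 12 macrophage markers was called with limma, 2 of them being lower at an unadjusted p under 0.05. Of the dendritic cell markers 3 of 7 were called higher, of the neutrophil markers 1 of 11 higher and 5 lower, and of the pre-B cell markers 3 of 7 lower. No marker of these 7 lists that the table holds was at 0 in every mouse. The summed level of the mature B cell markers was 15.14 to 15.78 (log2) in FMD + VC mice, 13.53 to 15.51 in AL + VC mice, 13.71 to 14.91 in FMD mice and 13.01 to 14.02 in AL mice. That of the T cell markers was 12.97 to 13.89 in FMD + VC, 12.06 to 13.78 in AL + VC, 12.48 to 13.22 in FMD and 11.99 to 13.31 in AL mice, and that of the erythroid markers 11.43 to 13.43 in FMD + VC, 11.58 to 15.54 in AL + VC, 12.68 to 15.61 in FMD and 12.95 to 16.88 in AL mice. The dendritic cell markers summed to 11.44 to 11.74 in FMD + VC, 11.13 to 11.76 in AL + VC, 10.95 to 12.86 in FMD and 10.68 to 12.05 in AL mice. The neutrophil markers summed to 9.18 to 11.53 in FMD + VC, 9.54 to 12.96 in AL + VC, 10.40 to 11.53 in FMD and 10.17 to 12.25 in AL mice. The mean rlog of the pre-B cell markers was 5.01 to 7.28 in FMD + VC, 5.06 to 7.37 in AL + VC, 5.30 to 6.90 in FMD and 5.23 to 6.89 in AL mice.

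In FMD + VC spleens Tfeb, Mitf, Laptm5, the proteases Ctsh, Ctss and Ctsz, and the enzymes Hexa, Sgsh and Lipa were called higher than in AL, the glycosidases Gla and Gusb were called lower, and none of the 6 proton pump members was called. With limma and Benjamini-Hochberg adjustment over the 16557 genes, 9 of the 38 members were called higher (23.7%) and 2 lower (5.26%) in FMD + VC vs AL. The whole table had 19.5% of its genes called higher and 20% called lower, 39.5% in either direction, against 28.9% of the members. The members' share called higher was near that of all genes and their share called lower was smaller. At an unadjusted p under 0.05 there were 13 members, against 49.1% of all genes. The median log2 fold change of the members was 0.07, with 27 of 38 positive, against -0.03 over all genes tested. With quantile normalization the split was 9 higher and 0 lower, with 6482 genes called in all, and the median was 0.13. Without AL mouse 25 the median was 0.15, and without FMD + VC mouse 30 it was 0.11. Every FMD + VC mouse was above every AL mouse for 3 members, Tfeb, Ctsh and Sgsh, a pattern that 10.8% of all genes showed, and no member had every mouse lower, against 9.62% of all genes. The markers of mature B, T, dendritic, erythroid, neutrophil and pre-B cells given above moved in the same comparison, and their part in the members' differences was not tested.

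**Figure D1:**
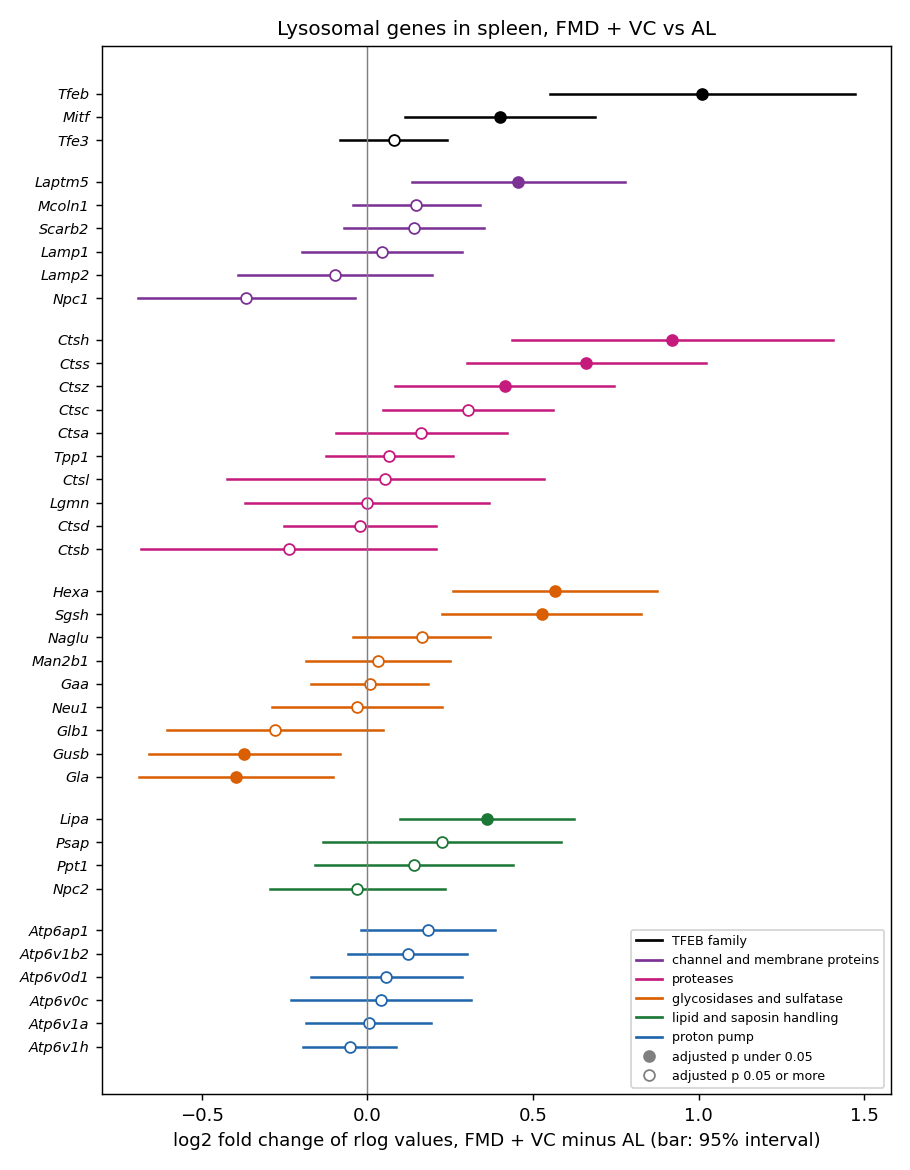
Log2 fold change of the 38 genes in FMD + VC (6 mice) vs AL (6 mice), on the x axis, with bars for the 95% interval, grouped by role; filled points have an adjusted p under 0.05. The 11 filled points run from Tfeb at 1.01 down to Gla at -0.40, and the 6 proton pump genes lie between -0.05 and 0.18.

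Tfeb, the factor after which the lysosomal regulation is named, had the largest fold change of the 38. Its rlog was 9.26, 9.68 and 9.77 (lowest, median and highest mouse) in FMD + VC, 8.32, 9.25 and 10.25 in AL + VC, 8.56, 8.77 and 9.44 in FMD and 8.17, 8.69 and 8.84 in AL. All 6 FMD + VC mice were above the 6 AL mice, although mouse 45 lay below the other FMD + VC mice, and the AL + VC mice spread over the values of both. The log2 fold change in FMD + VC vs AL was 1.01 (SE 0.22, adjusted p = 0.00143, limma). Mitf, a relative best known from melanocytes and osteoclasts, was 7.22, 7.27 and 7.69 in FMD + VC, 7.10, 7.29 and 7.73 in AL + VC, 6.84, 7.08 and 7.35 in FMD and 6.61, 7.02 and 7.29 in AL. The highest AL mouse reached into the range of the FMD + VC mice, and the AL + VC mice covered about the same values as FMD + VC. Mitf rose by 0.40 (SE 0.14, adjusted p = 0.0261) in FMD + VC vs AL. Tfe3, the third factor of the family, was 9.16, 9.23 and 9.33 in FMD + VC, 8.91, 9.12 and 9.46 in AL + VC, 9.05, 9.15 and 9.30 in FMD and 9.04, 9.12 and 9.35 in AL. The 4 groups overlapped throughout, and the difference of 0.08 in FMD + VC vs AL had a 95% interval from -0.08 to 0.24 (adjusted p = 0.434).

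**Figure D2:**
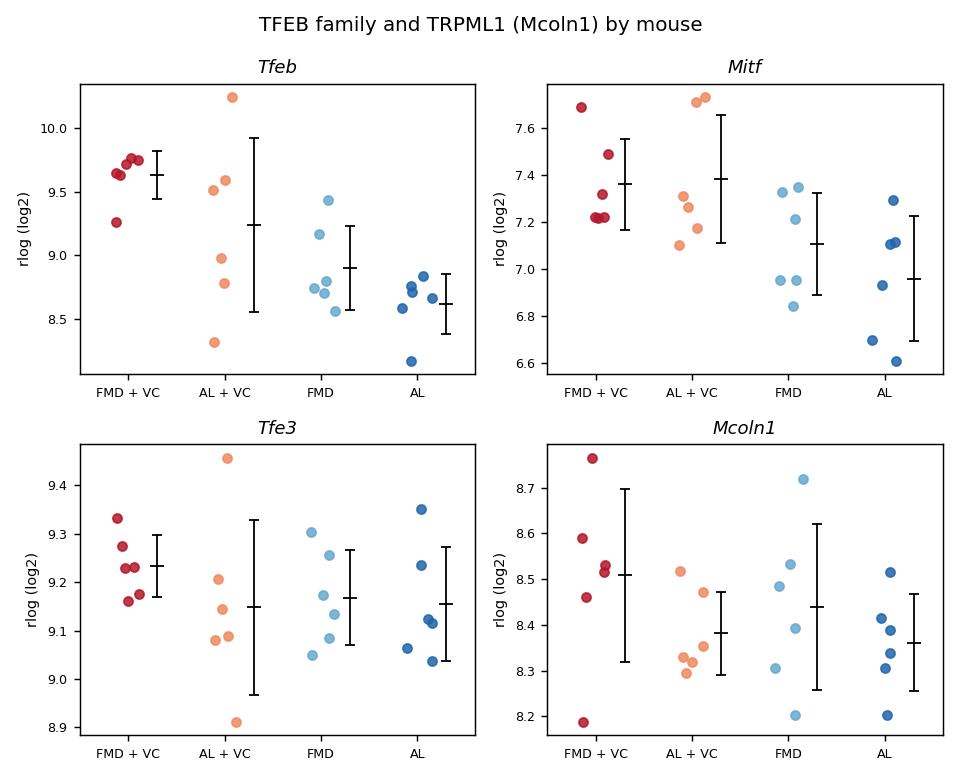
The rlog value of each mouse (points, 6 per group) for Tfeb, Mitf, Tfe3 and Mcoln1, with the mean and SD beside each group. FMD + VC mice sit at 9.26 to 9.77 for Tfeb, above the AL mice at 8.17 to 8.84, whereas the groups overlap for Tfe3.

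Among the 6 channel and membrane proteins 1 was called. Laptm5, a transmembrane protein of lysosomes in blood cells that in mouse lowers surface antigen receptors, was 12.95, 13.04 and 13.30 in FMD + VC, 12.38, 12.84 and 13.29 in AL + VC, 12.40, 12.72 and 12.95 in FMD and 11.95, 12.71 and 13.01 in AL. Only the highest AL mouse, 25, entered the FMD + VC range, and the fold change was 0.46 (SE 0.16, adjusted p = 0.0232). Mcoln1, which encodes the calcium channel TRPML1, was 8.19, 8.52 and 8.77 in FMD + VC, 8.30, 8.34 and 8.52 in AL + VC, 8.20, 8.44 and 8.72 in FMD and 8.20, 8.36 and 8.52 in AL. Its groups overlapped, with a difference of 0.15 in FMD + VC vs AL (95% interval -0.04 to 0.34, adjusted p = 0.206).

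Npc1 and Scarb2 were the other membrane proteins followed by mouse. Npc1, the protein that exports cholesterol from the lysosome, was 10.28, 10.39 and 10.49 in FMD + VC, 10.14, 10.44 and 10.73 in AL + VC, 10.29, 10.80 and 11.33 in FMD and 10.05, 10.83 and 11.15 in AL. AL mouse 32 alone was below the FMD + VC mice and the other 5 AL mice were above them. The difference was -0.36 (SE 0.16) with an adjusted p of 0.069, and without AL mouse 32 it was -0.51 with an adjusted p of 0.00687. Scarb2, the receptor that carries glucocerebrosidase to lysosomes, was 11.11, 11.32 and 11.64 in FMD + VC, 11.08, 11.21 and 11.53 in AL + VC, 11.03, 11.14 and 11.29 in FMD and 10.94, 11.17 and 11.59 in AL. Its difference of 0.14 in FMD + VC vs AL did not pass the test (adjusted p = 0.282). Lamp1 and Lamp2, the abundant glycoproteins that line the membrane, differed by 0.04 (95% interval -0.20 to 0.29) and -0.10 (-0.39 to 0.20) in FMD + VC vs AL.

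Of the 10 proteases, 3 rose and none fell in FMD + VC vs AL. Ctsh, an aminopeptidase of the cathepsin family, was 11.10, 11.24 and 11.38 in FMD + VC, 10.05, 10.88 and 11.23 in AL + VC, 10.32, 10.48 and 11.61 in FMD and 9.68, 10.44 and 10.95 in AL. Every FMD + VC mouse was above every AL mouse, and FMD mouse 7 was the highest of all. The fold change was 0.92 (SE 0.23, adjusted p = 0.00396). Ctss, which cuts the invariant chain of MHC class II in antigen-presenting cells, was 12.21, 12.40 and 12.54 in FMD + VC, 11.65, 11.70, 11.84, 12.15, 12.32 and 12.41 in the 6 AL + VC mice, 11.50, 11.78 and 12.24 in FMD and 11.04, 11.80 and 12.37 in AL. The highest AL and FMD mice, 25 and 7, overlapped the FMD + VC mice, and the fold change was 0.66 (SE 0.17, adjusted p = 0.00507).

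Ctsz, a carboxypeptidase, was 11.17, 11.36 and 11.43 in FMD + VC, 10.70, 11.20 and 11.34 in AL + VC, 10.65, 10.89 and 11.52 in FMD and 10.49, 10.86 and 11.57 in AL. AL mouse 25 and FMD mouse 7 were above all FMD + VC mice, the other AL and FMD mice below them, and the fold change was 0.41 (SE 0.16, adjusted p = 0.0433). Ctsc, which activates the serine proteases of cytotoxic cells and neutrophils, was 11.35, 11.58 and 11.76 in FMD + VC, 11.15, 11.31 and 11.71 in AL + VC, 10.97, 11.27 and 11.32 in FMD and 10.84, 11.38 and 11.62 in AL. All 6 FMD + VC mice were above the FMD mice but not above AL, where the difference was 0.30 (SE 0.12, adjusted p = 0.0555). The remaining 6 proteases, Ctsa, Ctsb, Ctsd, Ctsl, Lgmn and Tpp1, ranged from -0.24 for Ctsb to 0.16 for Ctsa. Ctsb and Ctsl had wide spreads in AL, from 12.65 to 14.29 and from 8.84 to 10.63, with AL mouse 25 the highest in both. In the annotation 34.4% of the exon bases of Ctsd lie in Gm49369 on the same strand and 26.8% of those of Ctsl face Gm47123 on the other, so that their values are uncertain. Also on the other strand, Fdft1 faces 12.8% of the exon bases of Ctsb. Pltp and Neurl2 face 10.5% and 6.9% of those of Ctsa, so the values of Ctsb and Ctsa may be affected too.

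The 9 glycosidases and sulfatase split into 2 that rose, 2 that fell and 5 that were not called. Hexa, the alpha subunit of the hexosaminidase that degrades GM2 ganglioside, was 9.74, 9.94 and 10.18 in FMD + VC, 9.59, 9.80 and 10.15 in AL + VC, 8.88, 9.43 and 9.70 in FMD and 8.93, 9.45 and 9.75 in AL. The 6 FMD + VC mice lay above all FMD mice and met AL only at its highest mouse, and the fold change was 0.57 in FMD + VC vs AL (SE 0.15, adjusted p = 0.005). Sgsh, the sulfatase that opens heparan sulfate degradation at N-sulfated glucosamine, was 8.93, 9.08 and 9.27 in FMD + VC, 8.40, 8.89 and 9.30 in AL + VC, 8.48, 8.79 and 9.03 in FMD and 8.07, 8.66 and 8.82 in AL. FMD + VC and AL did not overlap, and the fold change was 0.53 (SE 0.15, adjusted p = 0.00683). Exons of the opposite-strand genes Card14 and Tmem202 cover 21.6% of the exon bases of Sgsh and 12.8% of those of Hexa. Reads that overlapped several genes were left out of the counting. Whether genes on the other strand counted as an overlap was not stated, so reads in these shared exons may be missing from the values of Sgsh and Hexa.

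Gla, which removes terminal alpha-galactose from glycolipids and whose promoter holds the paired sites shown above, was 6.65, 6.95 and 7.01 in FMD + VC, 6.29, 6.93 and 7.25 in AL + VC, 7.00, 7.09 and 7.16 in FMD and 6.91, 7.28 and 7.83 in AL. The lowest AL mouse fell within FMD + VC, and Gla fell by 0.40 in FMD + VC vs AL (SE 0.14, adjusted p = 0.0301). Gusb, which cleaves glucuronic acid from glycosaminoglycans, was 10.07, 10.19 and 10.49 in FMD + VC, 10.01, 10.36 and 10.73 in AL + VC, 9.85, 10.59 and 10.70 in FMD and 10.24, 10.67 and 10.72 in AL. AL mouse 32 stood apart below the other AL mice and inside FMD + VC, and the fold change was -0.37 (SE 0.14, adjusted p = 0.0385). Gaa, Glb1, Man2b1, Naglu and Neu1, which act on glycogen, galactosides, mannosides, heparan sulfate and sialic acid, ranged from -0.28 for Glb1 to 0.16 for Naglu.

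Of the 4 genes of lipid and saposin handling 1 was called. Lipa, the acid lipase that frees cholesterol and fatty acids from lipoprotein lipids, was 9.88, 10.27 and 10.42 in FMD + VC, 9.90, 10.05 and 10.61 in AL + VC, 9.44, 9.91 and 10.14 in FMD and 9.65, 9.89 and 9.99 in AL. The groups overlapped at the lower FMD + VC mice, and the fold change was 0.36 (SE 0.13, adjusted p = 0.0273). Psap, the precursor of the saposins that present lipids to enzymes, was 13.89, 14.28 and 14.42 in FMD + VC, 13.88, 14.08 and 14.33 in AL + VC, 13.73, 14.02 and 14.81 in FMD and 13.47, 14.00 and 14.73 in AL. Ppt1, which removes palmitate from proteins, was 10.42, 10.58 and 10.85 in FMD + VC, 10.16, 10.35 and 10.82 in AL + VC, 9.97, 10.33 and 10.58 in FMD and 9.80, 10.55 and 10.73 in AL. Their differences in FMD + VC vs AL, 0.23 for Psap and 0.14 for Ppt1, had intervals from -0.13 to 0.58 and from -0.16 to 0.44. Without AL mouse 32 they were 0.12 for Psap and 0.0059 for Ppt1, and without AL mouse 25 Psap was at 0.37 (adjusted p = 0.0604). Npc2, which hands cholesterol to Npc1, was 10.93, 11.17 and 11.31 in FMD + VC, 11.01, 11.13 and 11.50 in AL + VC, 10.83, 11.13 and 11.53 in FMD and 10.70, 11.19 and 11.65 in AL. It differed by -0.03 (95% interval -0.29 to 0.23, adjusted p = 0.869), a sign that turned without AL mouse 25 (0.063) or without FMD + VC mouse 30 (0.015).

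**Figure D3:**
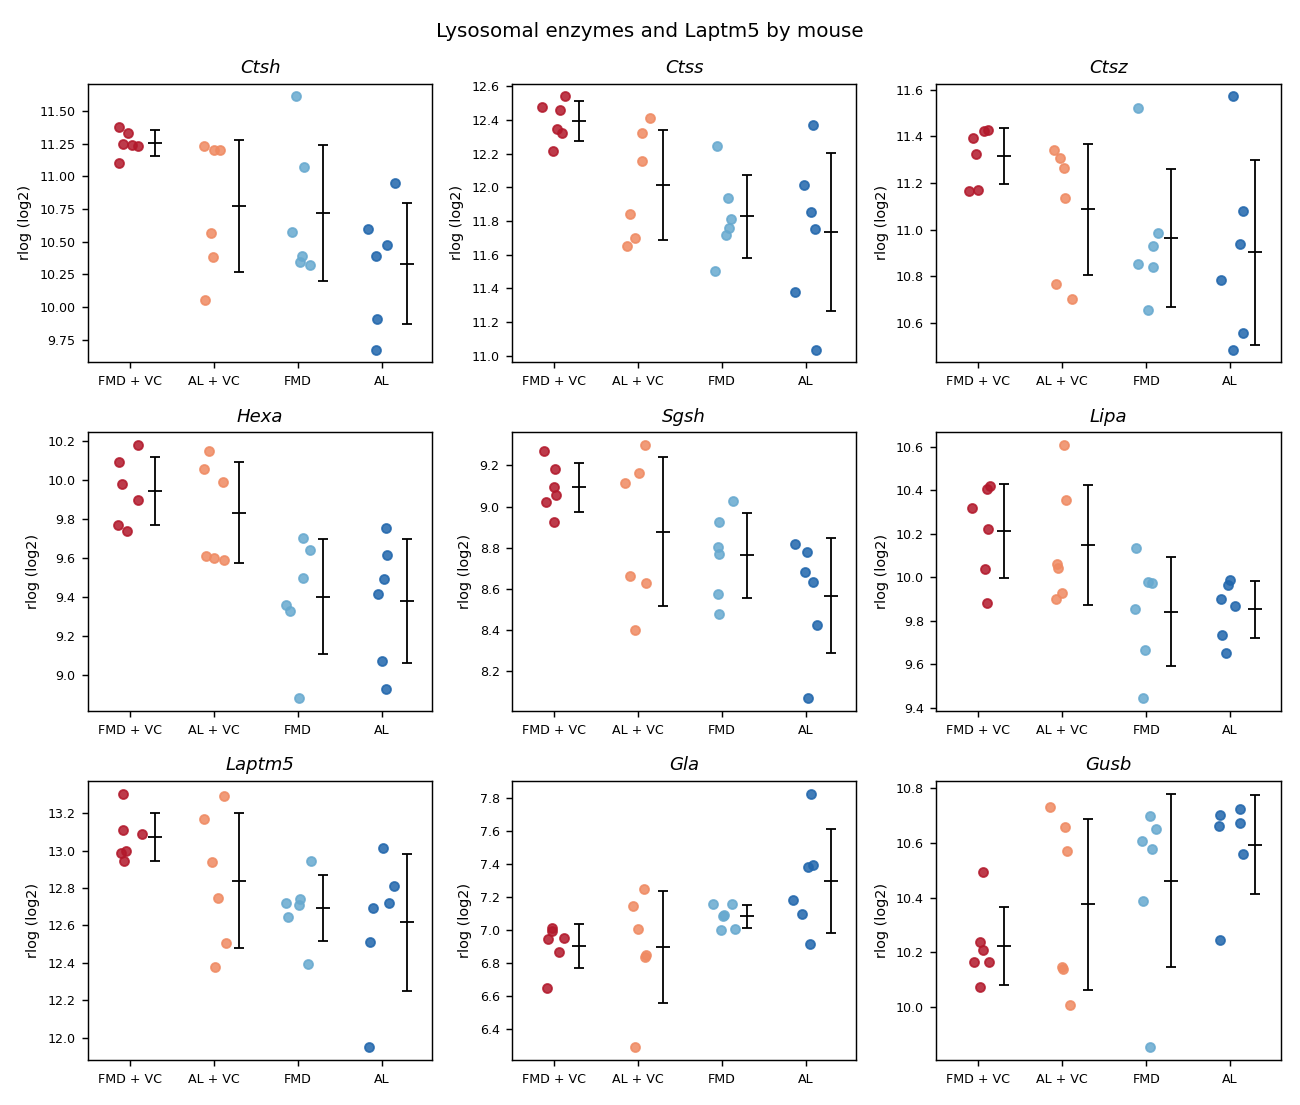
The rlog value of each mouse (points, 6 per group) for 8 enzymes and Laptm5, with the mean and SD beside each group. For Ctsh and Sgsh all FMD + VC mice lie above all AL mice, Gla and Gusb run the other way with overlap, and the AL + VC mice spread widely.

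None of the 6 proton pump genes was called with limma in FMD + VC vs AL, and none had an unadjusted p under 0.05. Atp6ap1, an accessory subunit of the pump, was 10.59, 10.74 and 10.81 in FMD + VC, 10.38, 10.60 and 10.80 in AL + VC, 10.35, 10.46 and 10.63 in FMD and 10.15, 10.48 and 10.87 in AL. Its difference in FMD + VC vs AL was 0.18 (95% interval -0.02 to 0.39, adjusted p = 0.135). Without AL mouse 32 it was 0.25 with an adjusted p of 0.0378, and with quantile normalization it was 0.20 with an adjusted p of 0.042. Atp6v1b2, of the cytosolic part that binds ATP, was 10.46, 10.55 and 10.62 in FMD + VC, 10.27, 10.44 and 10.64 in AL + VC, 10.35, 10.42 and 10.55 in FMD and 10.22, 10.37 and 10.82 in AL. Its difference was 0.12 (95% interval -0.06 to 0.30, adjusted p = 0.268), and without AL mouse 32 it was 0.20 with an adjusted p of 0.0303.

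Atp6v0d1, a subunit that joins the membrane and cytosolic parts, was 9.44, 9.56 and 9.64 in FMD + VC, 9.08, 9.42 and 9.60 in AL + VC, 9.28, 9.33 and 9.54 in FMD and 9.18, 9.42 and 9.84 in AL. Its difference of 0.06 in FMD + VC vs AL (95% interval -0.17 to 0.28) was close to 0, at -0.0038 without AL mouse 33. Atp6v1h, a regulatory subunit of the cytosolic part, was 9.60, 9.66 and 9.72 in FMD + VC, 9.54, 9.60 and 9.74 in AL + VC, 9.47, 9.72 and 9.79 in FMD and 9.60, 9.69 and 9.89 in AL. Its difference was -0.05 (95% interval -0.19 to 0.09), and its span of 0.43 over the 24 mice was the smallest of the 38 members, at percentile 1.8 of the genes tested. Atp6v1a, the catalytic subunit, differed by 0.00 (95% interval -0.18 to 0.19). Atp6v0c, the proton-carrying ring, differed by 0.04 (-0.23 to 0.31), and its value is uncertain because the genome holds the processed pseudogenes Atp6v0c-ps1 and Atp6v0c-ps2.

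The calls were not equally firm. Tfeb, Ctsh, Ctss, Hexa and Sgsh kept their call in each of 12 fits without 1 mouse, with the highest adjusted p at 0.0041, 0.0118, 0.0152, 0.0151 and 0.0197. The other 6 lost it in some. Laptm5 lost it without AL mouse 32 or FMD + VC mouse 46, Mitf without AL mice 32 or 33 or FMD + VC mice 21 or 45, and Gla without AL mice 6, 25 or 32 or FMD + VC mouse 30. Lipa lost it without AL mice 32 or 33 or FMD + VC mice 21, 45 or 46. Ctsz lost it in 8 of 12 fits, being called only without AL mice 6 or 25 or FMD + VC mice 30 or 42, and Gusb lost it in 9 of 12, being called only without AL mice 25 or 32 or FMD + VC mouse 45. Their highest adjusted p was 0.0669 for Laptm5, 0.0669 for Mitf, 0.0858 for Gla, 0.0661 for Lipa, 0.109 for Ctsz and 0.0765 for Gusb. Ctsc gained a call without AL mice 6 or 25 or FMD + VC mouse 42, down to an adjusted p of 0.0228.

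The contrast that holds vincristine fixed, FMD + VC vs AL + VC, had no member called and no gene of the table called (0%) with limma. At an unadjusted p under 0.05 there was 1 member, Ctss, against 11.3% of all genes. No member had every FMD + VC mouse above or below every AL + VC mouse, which 0.0906% of all genes showed in each direction. The fold changes of Tfeb, Ctsh and Ctss in FMD + VC vs AL + VC were 0.39 (SE 0.22, adjusted p = 0.485), 0.48 (SE 0.23, adjusted p = 0.439) and 0.38 (SE 0.17, adjusted p = 0.427). Leaving out AL + VC mouse 14 gave 0.21 for Tfeb, and leaving out mouse 17 gave 0.59. The median over the members was 0.10, with 28 of 38 positive, against -0.01 over all genes. With a weight for each library 7 members were called. Of these Tfeb (0.63), Ctsh (0.66), Ctss (0.48), Laptm5 (0.39), Sgsh (0.31) and Ctsc (0.28) were higher and Gusb (-0.31) was lower, and 4966 genes were called in all. The weights were 0.694 to 1.26 in AL + VC mice 13, 14 and 37 and 0.270 to 0.443 in mice 17, 18 and 41. In FMD + VC they ran from 0.553 (mouse 45) to 7.29 (mouse 29). The weighted values thus lean toward mice 13, 14 and 37 of AL + VC and mouse 29 of FMD + VC.

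The AL + VC mice did not form 1 level for most of the members called in FMD + VC vs AL. Mice 13, 14 and 37, those with the higher Xist, were the 3 lowest of AL + VC for 7 of the 9 members that were higher in FMD + VC vs AL (Tfeb, Laptm5, Ctsh, Ctss, Ctsz, Hexa and Sgsh). For Gla and Gusb, the 2 that were lower, mice 17, 18 and 41 were the 3 lowest. The share of all genes with either order was not counted. AL + VC was the group with the widest spread for 41.1% of all genes. For Tfeb the AL + VC mice stood at 8.32, 8.79 and 8.98 (mice 14, 13 and 37) and at 9.52, 9.59 and 10.25 (mice 18, 41 and 17). The mean rlog of the 9 mature B cell markers was 10.16 in mouse 14, 10.99 in mouse 13 and 11.23 in mouse 37, against 12.18 in mouse 18, 11.90 in mouse 41 and 11.87 in mouse 17. The mean of the 10 T cell markers was 8.02 to 8.74 in mice 13, 14 and 37 and 9.60 to 10.15 in mice 17, 18 and 41, and that of the neutrophil markers was 7.95 to 8.21 in mice 13, 14 and 37 and 5.29 to 6.17 in mice 17, 18 and 41. The macrophage and erythroid means overlapped. They were 9.87 to 10.48 and 7.50 to 11.13 in mice 13, 14 and 37, and 9.61 to 10.51 and 7.21 to 9.18 in mice 17, 18 and 41. The part of cell content in these values was not tested.

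In AL + VC vs AL no member was called with limma, against 6.45% of all genes (3.92% higher, 2.53% lower), and 6 members had an unadjusted p under 0.05, against 28% of all genes. They were Tfeb (0.62, SE 0.22, adjusted p = 0.0814), Hexa (0.45, SE 0.15, adjusted p = 0.0609), Mitf (0.42, SE 0.14, adjusted p = 0.0617), Sgsh (0.31, SE 0.15, adjusted p = 0.164), Lipa (0.30, SE 0.13, adjusted p = 0.132) and Gla (-0.40, SE 0.14, adjusted p = 0.0759). Without AL + VC mouse 14, 5 of them were called, with Tfeb at 0.80 (adjusted p = 0.0103), Mitf at 0.48, Hexa at 0.50, Sgsh at 0.41 and Gla at -0.45. Without mouse 13 Tfeb, Hexa and Gla were called, and without mouse 37 Hexa was. The 1068 genes behind the 6.45% became 1869, 2920 and 1702 in these fits, and 7, 6 and 9 without AL + VC mice 17, 18 and 41. In a fit of only AL + VC and AL no gene was called, with 5 members at an unadjusted p under 0.05. Without AL mice 3, 6, 25, 32 or 33 there were 658, 222, 587, 327 and 36 genes and no member. No member had every AL + VC mouse above or below every AL mouse, against 0.634% and 0.58% of all genes.

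For the diet without the drug, in FMD vs AL, no member and no gene of the table was called (0%) with limma, and no member had an unadjusted p under 0.05, against 4.27% of all genes. No member had every FMD mouse above or below every AL mouse (0.145% and 0.0846% of all genes). The median over the members was -0.03 and over all genes -0.02. Tfeb differed by 0.28 (95% interval -0.18 to 0.74, adjusted p = 0.934). The interaction of diet and vincristine, which asks whether the drug acted differently on the diet, had no member and no gene called (0%), no member at an unadjusted p under 0.05 and 3.04% of all genes at that level. For Tfeb it was 0.11 (95% interval -0.54 to 0.76, adjusted p = 0.999), and it was -0.077 without AL + VC mouse 14.

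Among the mice on the diet, 5 members rose and none fell with vincristine. In FMD + VC vs FMD the background was 23.5% of all genes called, 12.6% higher and 10.9% lower, against 13.2% of the members. The 5 were Tfeb (0.73, SE 0.22, adjusted p = 0.0219), Ctss (0.57, SE 0.17, adjusted p = 0.0223), Hexa (0.54, SE 0.15, adjusted p = 0.0126), Ctsc (0.39, SE 0.12, adjusted p = 0.0267) and Lipa (0.37, SE 0.13, adjusted p = 0.0368). Laptm5, Ctsc and Hexa had every FMD + VC mouse above every FMD mouse, as 5.96% of all genes did, and no member had every mouse lower, against 5.16%. At an unadjusted p under 0.05 there were 12 members, against 37.5% of all genes. Without FMD mouse 11 the calls of Tfeb (adjusted p = 0.0548), Ctss (0.0583), Ctsc and Lipa were lost and 1 member, Hexa, was called. Without FMD mouse 7 there were 8, Ctsh, Ctsz and Atp6ap1 being added. Over all genes 2812 were called without mouse 11 and 3755 without mouse 7. Ctsc also lost its call without FMD + VC mice 21 or 45, and Lipa without FMD mice 9 or 34 or FMD + VC mice 21, 29, 45 or 46. With quantile normalization Tfeb and Hexa kept the call and Ctss (adjusted p = 0.0508), Ctsc (0.0797) and Lipa (0.0505) lost it, whereas a fit of only these 2 groups called 12 members higher. The comparisons of FMD + VC vs AL and FMD + VC vs FMD share the FMD + VC mice.

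**Figure D4:**
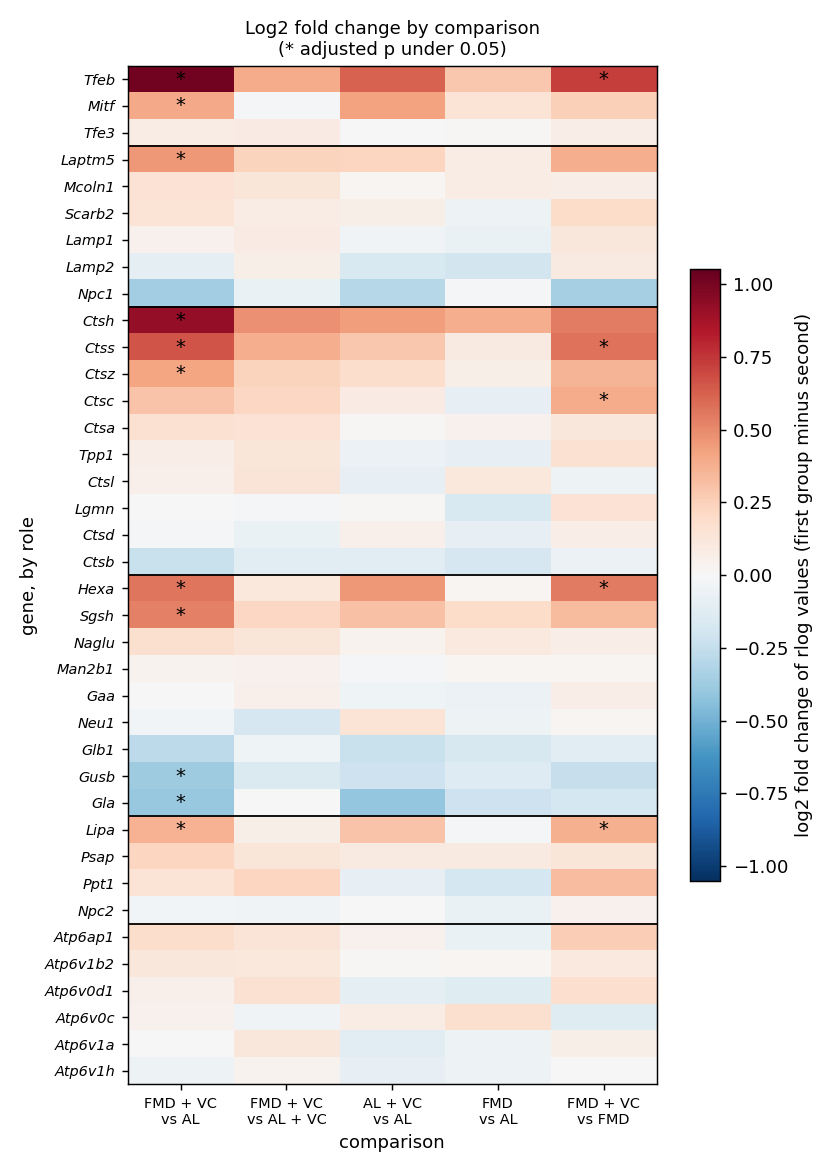
Log2 fold change (colour) of the 38 genes (rows, by role) in 5 comparisons of 6 mice per group (columns), with a star where the adjusted p was under 0.05. The stars stand in FMD + VC vs AL (11) and FMD + VC vs FMD (5), and none stands in the other 3 columns.

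How the members varied within a group differed from the rest of the table. AL had the widest spread of the 4 groups for 22 of 38 members (57.9%), against 33.4% of all genes, and AL + VC for 9 (23.7%), against 41.1% of all genes. The median SD of the members was 0.13 in FMD + VC, 0.22 in AL + VC, 0.19 in FMD and 0.29 in AL. Over all genes it was 0.19, 0.28, 0.23 and 0.27 in the same order. FMD + VC had the narrowest spread for 21 of 38 members and for 47.8% of all genes. AL mouse 25 was the highest AL mouse for 25 members (65.8%, against 16.8% of all genes) and AL mouse 32 the lowest for 22 (57.9%, against 32% of all genes). FMD mouse 7 was the highest of its group for 23 members, against 19.1% of all genes. In FMD + VC, mouse 45 was highest for 16 members (42.1%, against 29.8% of all genes). Mouse 30 was lowest for 21 (55.3%, against 21.3% of all genes). Over all genes mouse 45 was also the lowest of its group for 29.9%. The mean over 12 macrophage markers was 10.93 in FMD + VC mouse 45 and 9.18 in FMD + VC mouse 30, the highest and lowest of that group, and 10.85 in AL mouse 25, the highest of AL. The summed level of these markers was 13.44 to 15.06 in FMD + VC, 13.76 to 14.65 in AL + VC, 13.98 to 14.31 in FMD and 13.73 to 14.99 in AL mice. The mean was 10.10 in FMD mouse 7, inside its group's range of 9.67 to 10.14. In AL mouse 32 it was 9.89, inside the AL range of 9.63 to 10.85. The part of macrophage content in the members' levels was not tested.

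The calls were also counted by promoter site, where all genes tested had 19.5% called higher and 20% lower. Of the 12 genes with TCACGTG in a window 1 was called higher in FMD + VC vs AL (Sgsh) and 1 lower (Gla), with a median fold change of 0.03 and a range from -0.40 to 0.53. Of the 21 genes with windows but no TCACGTG, 7 were called higher and 1 lower, with a median of 0.14. These are descriptions of 33 genes, and the difference between the groups of genes was not tested.

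**Figure D5:**
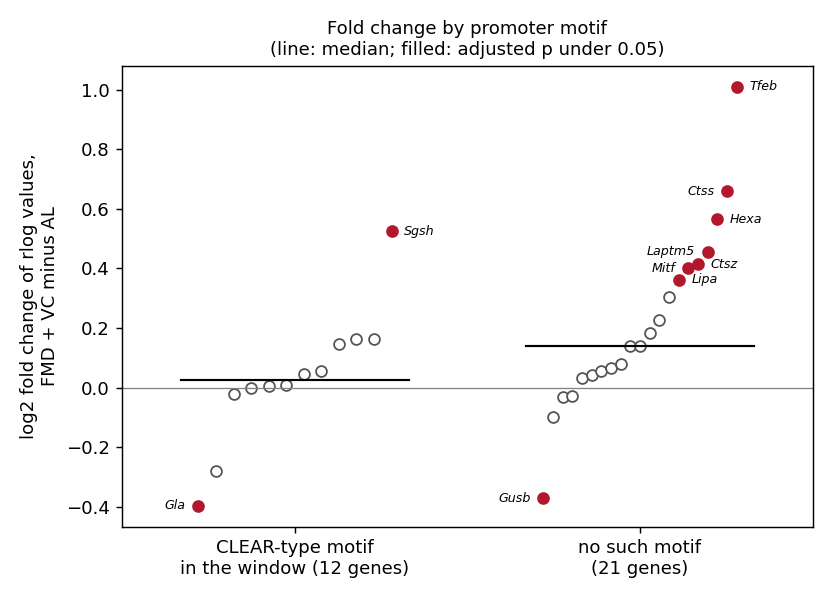
Log2 fold change in FMD + VC vs AL (y axis) of the 12 genes with the 7-letter site in a promoter window, on the left, and of the 21 without it, on the right; lines are medians (0.03 and 0.14) and filled points were called. Sgsh and Gla are the called genes on the left, and Tfeb lies highest on the right.

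Further lysosomal genes, from lists by function, were read in the same fit of FMD + VC vs AL, in which 19.5% of all genes rose and 20% fell. Of 34 other hydrolases and activators 11 rose and 2 fell, with a median of 0.06. Fuca1, the fucosidase, rose by 0.50 (SE 0.08, adjusted p = 0.000211), Naaa, an amidase of lipid amides, rose by 0.91 (SE 0.17, adjusted p = 0.000437) and Galc, which degrades galactosylceramide, fell by 0.92 (SE 0.16, adjusted p = 0.000269). Of 13 other proton pump genes 2 rose and 1 fell. Atp6v0a2 rose by 0.30 and Atp6v0d2 by 0.85, while the accessory subunit Atp6ap2 fell by 0.30 (adjusted p = 0.019, and 0.0539 without FMD + VC mouse 42).

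Of 24 other membrane proteins and transporters 5 rose and 1 fell, beside the same 19.5% and 20% of all genes, and Mcoln3 (TRPML3), Lamp3 and Laptm4b rose by 1.04, 1.02 and 0.83. Of 12 genes that sort enzymes to the lysosome 5 rose and none fell. Gga2, an adaptor of the Golgi, rose by 1.27 (SE 0.18, adjusted p = 7.77e-05), Igf2r, the mannose 6-phosphate receptor, by 0.76 and Ap1g1 by 0.21. Of 9 genes around TFEB control 2 rose and 2 fell. Ppp3cb, a catalytic subunit of calcineurin, fell by 0.42 (SE 0.08, adjusted p = 0.000688), Flcn, which controls mTORC1 signalling toward TFEB, rose by 0.32 and Gpnmb, a glycoprotein of macrophage lysosomes, rose by 1.13. The mature B cell markers rose in the same comparison, and their part in these changes was not tested.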

How the data were processed

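Spleen RNA was sequenced from 24 mice, 1 library each, after removal of ribosomal RNA, with single-end reads of 50 bases. HISAT2 2.1.0 was used by the authors for mapping, HTSeq 0.6.1 for counting reads in genes and DESeq2 for the rlog. The deposited table holds these log2 (rlog) values for 46078 genes. Since counts were not analysed here, depth is unknown and DESeq2's test was not run. Standard errors come from the spread of mice within groups, pooled over the 4 groups. The SE of a comparison thus also holds the spread of groups outside it, except in fits restricted to the compared groups. For Tfeb the SD was 0.19 in FMD + VC and 0.69 in AL + VC. The rlog draws genes with few reads toward their mean, which understates their fold changes.

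Genes whose mean rlog reached 3.32 (log2 of 10) were tested with limma 3.58.1 in R 4.3.3 (eBayes with a variance trend), with 1 coefficient per group over all 24 mice, contrasts between groups and Benjamini-Hochberg adjustment over 16557 genes, at a threshold of 0.05. Members, lists and comparisons were chosen with earlier results of these data known. Named by mouse are the TFEB family, Mcoln1 and up to 4 members per role with the smallest p in FMD + VC vs AL, and of the other lists up to 3 genes each. Of the marker lists only those beside a result are named. Alternatives were no minimum, a minimum at log2 of 50, library weights (arrayWeights), quantile normalization, fits restricted to the compared groups, leaving out each mouse, and a promoter window of 250 bases before the start only. They were extended to the other lists after seeing the data. Gene overlaps were read from GENCODE M21 and figures drawn with matplotlib 3.10.9.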

Additional observations from a re-analysis of the deposited data

Results flagged for a closer look

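In each of 152 groups (38 members in 4 groups of 6 mice) the gap of the highest or lowest mouse to its neighbour was compared with the range of its group. In 8 groups the gap passed Dixon's 95% critical value, where chance gives about 1 in 20, or 7.6 of 152. AL mouse 32 was the lowest of its group by such a gap for Npc1 (10.05, next 10.77), Gusb (10.24, next 10.56), Neu1 (8.51, next 9.22) and Ppt1 (9.80, next 10.55). FMD mouse 7 was the highest for Ctsb (13.90, next 13.18) and Psap (14.81, next 14.11), and FMD mouse 9 the lowest for Gusb (9.85, next 10.39). FMD + VC mouse 45 was the lowest of its group for Tfeb (9.26, next 9.63). No member passed the test of the interaction of diet and vincristine.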

How the results depend on the processing

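No paired analysis was possible because the mouse numbers differ between the groups. Members called higher and lower in FMD + VC vs AL were 9 and 2. They were 8 and 1 with no minimum, 9 and 0 with quantile normalization and 16 and 5 with library weights, and without 1 mouse 6 to 10 were higher and 0 to 3 lower. In FMD + VC vs FMD 5 were higher and 0 lower. They were 2 and 0 with quantile normalization, 12 and 0 in a fit of only the compared groups and 15 and 3 with library weights, and without 1 mouse 1 to 8 were higher and 0 to 2 lower. In FMD + VC vs AL + VC no member was called except with library weights (6 higher, 1 lower), where 4966 genes were called in all. In AL + VC vs AL none was called except without 1 mouse (0 to 4 higher, 0 to 1 lower), with 6 to 2920 genes called. In FMD vs AL and in the interaction none was called under any alternative that was run (the interaction needs all 4 groups). The weights ran from 0.146 for AL mouse 32 to 7.29 for FMD + VC mouse 29, and the cause of the larger counts was not tested. Of the differences of named genes that were followed through the alternatives, 3 changed sign, each without 1 mouse. Npc2 in FMD + VC vs AL ran from -0.13 (without AL mouse 32) to 0.063 (without AL mouse 25, and 0.015 without FMD + VC mouse 30), Atp6v0d1 from -0.0038 to 0.13 and the interaction of Tfeb from -0.077 (without AL + VC mouse 14) to 0.31. Counted over the 38 members, signs also moved with the scaling. With quantile normalization 22 in place of 17 were positive in FMD vs AL (median 0.02 in place of -0.03), 26 in place of 33 in the interaction, 29 in place of 27 in FMD + VC vs AL and 27 in place of 22 in AL + VC vs AL, where library weights gave 19. The window of 250 bases before the start held TCACGTG in 25.6%, CACGTG in 27.9% and TCATGTG in 6.98% of the members' windows. Over all windows the shares were 3.13%, 6.02% and 3.25%.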
